A study of Mus musculus with 12 samples.

Results

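The genes described here are those of the mTOR complexes, of the TSC brake upstream of them and of their direct substrates and lysosomal anchor. They were chosen by symbol, by a rule that uses no measured value, although earlier results of these data were known. They are the rows of the count table for *Mtor*, *Rptor*, *Rictor*, *Mlst8*, *Tsc1*, *Tsc2*, *Rheb*, *Rps6kb1*, *Eif4ebp1* and *Lamtor5*, which makes 10 of the 55401 genes in the table. All 10 were matched to a mouse Ensembl identifier. RNA was sequenced from oocytes of primordial and primary follicles after ovary culture with dorsomorphin (DM), an inhibitor of AMPK, or with DMSO as control. The study asked whether inhibition of AMPK, which is upstream of mTOR, moves dormant follicles into growth.

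There were 12 libraries in 4 groups of 3, namely primordial control, primordial DM, primary control and primary DM. The ovaries came from female C57Bl/6j x CBA/J mice, 7 to 8 days old, and were cultured for 5 days. DM was given at 5 to 10 µM, and the labels do not say which of these doses a library received. Each library was made from 200 pooled oocytes, which were recognised by follicle morphology in H&E-stained paraffin sections and cut out by laser capture microdissection (LCM), after which their RNA was amplified. The submitters' labels call the material in vivo and the control a sham treatment, whereas the paper's methods describe cultured ovaries with DMSO, and the latter is followed here. The legends call the libraries biologically independent, but how many mice stand behind each library is not given in the sources used here, so the tests measure the spread between these libraries.

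mTOR is a serine and threonine kinase that works in 2 complexes. mTORC1, assembled around Raptor (*Rptor*), drives protein synthesis and cell growth through S6 kinase and the 4E-BP proteins, and mTORC2, assembled around Rictor, phosphorylates AKT. The small GTPase Rheb switches mTORC1 on at the lysosome, and the TSC1 and TSC2 proteins form a complex that keeps Rheb in its inactive state. AMPK restrains mTORC1 by phosphorylating TSC2 and Raptor. In the ovary, loss of *Tsc1* or *Tsc2* from oocytes is known to release primordial follicles from dormancy, which is why this pathway is read in these cells. All of these steps act on proteins, whereas the data here are RNA levels.

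The libraries held 14034586 to 42639326 counts, and 17728 genes had a count in at least 1 library. Counts were scaled to library size as CPM with TMM factors, which ranged from 0.259 to 2.88. A count of 0 allows up to 3 counts, which is 0.0275 to 0.351 TMM-normalized CPM depending on the library, and this limit covers counting error only. The oocyte label was checked against defining markers. *Ddx4*, a germ cell RNA helicase, had 11 to 47451 counts across all 12 libraries, *Dazl* was at 0 in 3 libraries, and *Zp3*, a zona pellucida protein, was at 0 in 4 and never exceeded 255 counts. Some markers of neighbouring cells were present as well. *Foxl2* of granulosa cells had 61 to 474295 counts and *Col1a1* of stroma had 2892 to 168895 counts in all 12 libraries. The other stroma markers were lower in places, with 4 to 10169 counts of *Pdgfra* and 5 to 7349 of *Dcn*. Of the other granulosa markers, *Amh* was at 0 in 6 libraries and never exceeded 89 counts, and *Fshr* was at 0 in all. Transcripts marking cells around the oocyte were thus counted in every library in amounts that differed widely, and in such bulk samples fewer cells of a type and less RNA per cell cannot be told apart.

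Most of the 10 genes were present in some libraries of a group and nearly absent in others. Presence was read as 1 CPM or more on total counts alone, without TMM factors. On that scale 8, 7 and 7 of the 10 genes were present in the primordial control libraries, and 4, 5 and 7 in the primordial DM libraries. In primary follicles, 8, 8 and 4 were present in control libraries, and 3, 1 and 4 in DM libraries. Some of these numbers depend on the scale. With TMM factors *Rictor* passed 1 CPM in primary control 3 (1.17) and fell below it in primordial control 3 (0.759). The libraries with few of these genes were mostly libraries with few genes of any kind. Primary control 3, with 4 of the 10, had 1727 genes at 1 CPM or more, and the primary DM libraries had 1798 to 2864 such genes in place of 5106 and 5662 in the other primary controls. Primordial DM 1 was an exception, with 4 of the 10 and 4867 genes present, which is more than the 4466 and 4683 in the primordial controls that had 7.

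**Figure D1:**
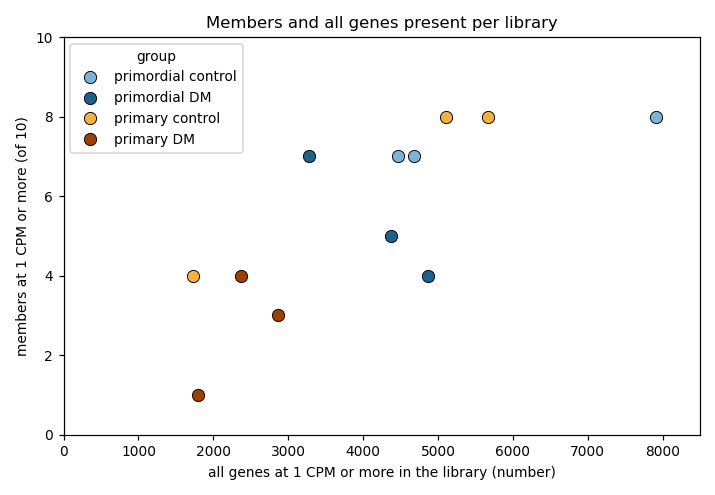
Number of the 10 genes at 1 CPM or more (vertical axis) against the number of all genes at 1 CPM or more (horizontal axis), with 1 point per library coloured by group. CPM is scaled to total counts alone, without TMM factors. The 3 primary DM libraries hold 1 to 4 of the 10 genes and 1798 to 2864 genes in all, and primordial control 1 lies far to the right with 8 of the 10 and 7909 genes.

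Within a group, 1 library usually held most of a gene's signal. The library with the highest level held a median of 78.6% of the summed CPM of the 3 primordial controls over the 10 genes, 71.5% in primordial DM, 78.3% in primary control and 86.5% in primary DM. The same medians over all genes were 80.9%, 87.8%, 89.6% and 93.5%, so this unevenness was a property of the libraries as a whole. The high library also changed from gene to gene. In primary DM, replicate 1 was the highest for 5 of the genes (*Rptor*, *Rictor*, *Mlst8*, *Tsc1* and *Tsc2*) and replicate 3 for the other 5 (*Mtor*, *Rheb*, *Rps6kb1*, *Eif4ebp1* and *Lamtor5*), with replicate 2 the highest for none.

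**Figure D2:**
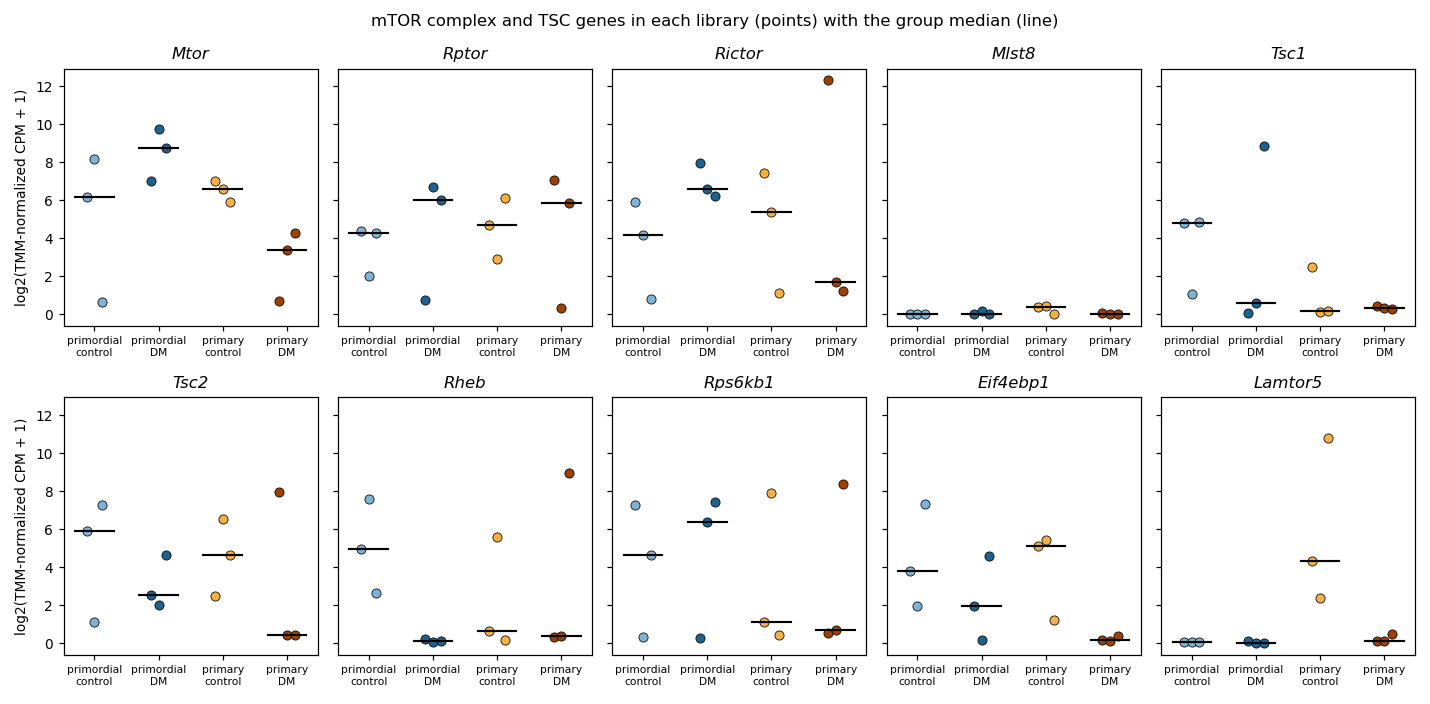
Level of each of the 10 genes as log2(TMM-normalized CPM + 1) on the vertical axis, with 1 panel per gene, 1 point per library and a line at the median of each group of 3. *Mtor* sits lower in all 3 primary DM libraries (0.596 to 18.3 CPM) than in the primary controls (58.3 to 129 CPM), *Rheb* sits near 0 in all primordial DM libraries, *Lamtor5* is high in the primary controls only, and *Mlst8* is near 0 throughout.

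Levels were compared between genes per kb of exon. Over the 12 libraries the median level was highest for *Mtor*, at 8.37 CPM per kb, followed by *Rictor* at 2.98, *Rptor* at 1.68, *Tsc2* at 1.50, *Rps6kb1* at 1.44 and *Eif4ebp1* at 1.30 CPM per kb. *Lamtor5* (0.0833 CPM per kb), *Rheb* (0.0545), *Tsc1* (0.0352) and *Mlst8* (0) had medians close to no signal, although all of these but *Mlst8* were abundant in single libraries. The ranges crossed for every pair of neighbours in this order. *Mtor* itself ran from 0.0525 to 84.8 CPM per kb, *Rictor* from 0.0448 to 302 and *Lamtor5* from 0 to 2044, so the order is a description of medians only.

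*Mtor* encodes the kinase shared by both complexes and lies on chromosome 4, 148448611 to 148557683 (GRCm38, as for all positions here). It had 7888, 15233 and 14 counts in primordial controls 1, 2 and 3, and 7265, 37793 and 9365 counts in the primordial DM libraries. Primordial control 3 was almost without *Mtor*, and otherwise the groups overlapped. The log2 fold change of DM against control was 1.93 ± 1.90 (SE, 3 libraries per group, edgeR adjusted p = 0.823). In primary follicles, *Mtor* had 7019, 3450 and 499 counts in controls and 10, 102 and 266 counts after DM. All 3 DM libraries lay below all 3 controls, at 0.596 to 18.3 against 58.3 to 129 CPM. This difference, a log2 fold change of -3.63 ± 3.19, did not pass the test (edgeR adjusted p = 0.544), and it ranged from -4.49 to -2.97 when any 1 library was left out.

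*Rptor*, on chromosome 11 from 119602905 to 119899576, encodes the scaffold that presents substrates to mTORC1. Its exons overlap those of *Rptoros* on the other strand, and whether the counting used strand is not given in the sources used here. Its counts were 2186, 155 and 485 in the primordial controls and 37, 4603 and 1387 in primordial DM. In the primary stage they were 1378, 230 and 579 without and 2245, 3 and 816 with DM. Both pairs of groups overlapped, and 1 DM library in each stage (primordial DM 1 and primary DM 2) was far below its group. The log2 fold changes were 1.97 ± 3.09 in primordial (edgeR adjusted p = 0.901) and 0.64 ± 2.84 in primary follicles (edgeR adjusted p = 0.911).

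*Rictor*, the scaffold of mTORC2, lies on chromosome 15 from 6708379 to 6800401. Primordial controls held 6500, 879 and 20 counts, and primordial DM libraries 14251, 4133 and 1579. As TMM-normalized CPM the 3 DM libraries (73.2 to 250.0) lay above the 3 controls (0.759 to 59.5), but scaled to total counts alone the groups overlapped, and on that scale 13% of all genes did not overlap in either direction. DM against control gave a log2 fold change of 2.41 ± 2.84 (edgeR adjusted p = 0.860). In primary follicles, *Rictor* had 9272, 1468 and 10 counts in controls and 85769, 24 and 19 counts after DM. Primary DM 1 stood alone at 5112 CPM while the other DM libraries were at 1.31 and 2.17 CPM. The log2 fold change of 4.18 ± 3.39 (edgeR adjusted p = 0.517) rested on that library, and without it the value was -5.52.

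*Mlst8* encodes the small beta-propeller subunit bound to the kinase domain in both complexes and lies on chromosome 17 from 24473551 to 24479078, where its exons overlap *Bricd5* on the other strand. It was hardly detected. Its counts were 0, 1 and 0 in primordial controls, 0, 6 and 0 in primordial DM, 17, 12 and 0 in primary controls and 1, 0 and 0 in primary DM libraries. No fold from a fit is given at such counts. The ratio of the summed counts, each relative to library size, of DM to control was 5.74 in primordial (exact 95% interval 0.696 to 264) and 0.0260 in primary follicles (0.000636 to 0.157), intervals that cover counting error and not the spread between libraries. The libraries overlapped in both stages.

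*Tsc1* encodes hamartin, which stabilises the TSC complex, and lies on chromosome 2 from 28641228 to 28691167. It had 2935, 58 and 740 counts in primordial controls and 3, 21 and 9888 counts in primordial DM libraries. A single DM library, replicate 3, carried nearly all of the signal after DM. The log2 fold change of 2.91 ± 2.89 (edgeR adjusted p = 0.823) went to -6.20 without it. In primary follicles, *Tsc1* had 253, 3 and 1 counts in controls and 6, 3 and 3 counts after DM, so that it was at 6 counts or fewer in 5 of the 6 libraries. At that stage it did not pass the filter on low counts, and an unfiltered fit put it at -2.62 ± 3.41 (edgeR adjusted p = 0.599).

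*Tsc2* encodes tuberin, the GTPase-activating subunit that is phosphorylated by AMPK and by AKT. It lies on chromosome 17 from 24595816 to 24632630 and shares exonic sequence with *Pkd1* on the other strand. Counts in primordial controls were 6398, 62 and 3989, and those in primordial DM 276, 135 and 517. Controls 1 and 3 were above all DM libraries and control 2 was below them, and the log2 fold change was -2.84 ± 3.17 (edgeR adjusted p = 0.852). Primary controls had 250, 3302 and 205 counts, and primary DM libraries 4145, 4 and 5. The log2 fold change of 0.36 ± 2.89 (edgeR adjusted p = 0.953) again hung on 1 library, since it was -7.14 without primary DM 1.

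*Rheb*, on chromosome 5 from 24802823 to 24842624, encodes the GTPase that TSC holds off and that activates mTORC1. The primordial controls had 3301, 9908 and 140 counts of it, and the primordial DM libraries 9, 1 and 2. All 3 DM libraries, at 0.0227 to 0.158 CPM, lay below all 3 controls, at 5.31 to 188 CPM. DM against control was at a log2 fold change of -9.68 ± 4.33, and this stayed between -10.46 and -7.57 with any 1 library left out. It did not pass edgeR's test (adjusted p = 0.658), whereas DESeq2 gave -9.29 with an adjusted p of 0.000585, and over all alternatives the adjusted p ran from 0.000585 to 0.999. In the same libraries *Foxl2* had 40701, 39034 and 4197 counts in controls and 97, 656 and 61 counts after DM, and the summed level of the 12 granulosa markers was 296 to 1860 CPM in controls and 259 to 928 CPM after DM. The part of granulosa RNA in the *Rheb* values was not tested.

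In primary follicles, *Rheb* had 31, 1695 and 1 counts in controls and 4, 3 and 7161 counts after DM. One library in each group was high, and the other 4 libraries were at 0.117 to 0.570 CPM. For DM against control it was 2.85 ± 3.21 on the log2 scale (edgeR adjusted p = 0.632), and this ran from -6.42 to 8.77 depending on which library was left out.

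*Rps6kb1* encodes S6 kinase 1, the mTORC1 substrate that phosphorylates ribosomal protein S6. It lies on chromosome 11 from 86498871 to 86544805 and overlaps *Rnft1* on the other strand. It had 16612, 12 and 627 counts in primordial controls and 12, 3561 and 3681 counts in primordial DM libraries. At the primary stage the controls held 62, 8529 and 3 counts and the DM libraries 7, 7 and 4802. Each group of 3 therefore held both abundant and near-empty libraries. On the log2 scale DM against control was 0.45 ± 2.78 in primordial (edgeR adjusted p = 0.981) and -0.05 ± 3.03 in primary follicles (edgeR adjusted p = 0.995).

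*Eif4ebp1* encodes 4E-BP1, which holds the cap-binding protein eIF4E until mTORC1 phosphorylates it, and lies on chromosome 8 from 27260329 to 27276674. Its primordial counts were 1427, 152 and 4147 without DM and 161, 5 and 488 with DM. The groups overlapped, and the log2 fold change of -2.90 ± 3.20 (edgeR adjusted p = 0.851) was -0.13 without primordial control 3. Its primary counts were 1806, 1509 and 11 without DM and 2, 1 and 4 with DM. All 3 DM libraries (0.0906 to 0.276 CPM) lay below all 3 controls (1.29 to 42.4 CPM), although primary control 3 was itself low. This was a log2 fold change of -7.67 ± 3.62, with -8.17 to -6.83 when 1 library was left out. edgeR gave an adjusted p of 0.396, and DESeq2 gave -5.20 with an adjusted p of 0.0491, the lowest over its alternatives, which reached 0.999.

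*Lamtor5* encodes a subunit of Ragulator, the complex that anchors Rag GTPases and so mTORC1 to the lysosome, and lies on chromosome 3 from 107278858 to 107284082. It had 1019, 151 and 15461 counts in the primary controls, and 6 counts or fewer in each of the other 9 libraries. These were 6, 1 and 1 counts in primordial controls, 5, 0 and 0 in primordial DM and 1, 1 and 6 in primary DM libraries. In primary follicles the DM libraries (0.0596 to 0.414 CPM) lay below the controls (4.25 to 1807 CPM), with a log2 fold change of -11.77 ± 4.89 (edgeR adjusted p = 0.395). The size of this difference depended on primary control 3, the library with the fewest genes present, and the leave-one-out values ran from -13.19 to -5.93. In primordial follicles the gene did not pass the filter, and the unfiltered fit gave -0.32 ± 2.60 (edgeR adjusted p = 0.960) on at most 6 counts per library.

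Across the 10 genes, no comparison of DM with control passed edgeR's test at an adjusted p under 0.05. In primordial follicles 8 of the 10 could be tested, of which 5 had a positive and 3 a negative log2 fold change, with a median of 1.19 beside 0.13 over all 6699 genes tested. Of those 6699 genes 0.0149% were called. At an unadjusted p under 0.05, 1 of the 8 (*Rheb*) was reached, beside 7.33% of all genes, and DESeq2 called 1 (*Rheb*) of the 6 to which it gave an adjusted p, beside 12.5% of all genes. The groups did not overlap for 2 of the 8 (*Rictor* higher, *Rheb* lower after DM), beside 12.6% of all genes, 4.02% higher and 8.63% lower.

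In primary follicles 8 of the 10 were tested, with 4 positive and 4 negative log2 fold changes and a median of 0.16 beside 0.31 over all 4181 genes tested, of which 0% were called. At an unadjusted p under 0.05, 2 of the 8 were reached (*Eif4ebp1* and *Lamtor5*), beside 12.2% of all genes. DESeq2 called 1 (*Eif4ebp1*) of the 3 genes to which it gave an adjusted p, beside 21.2% of all genes. The groups did not overlap for 3 of the 8, namely *Mtor*, *Eif4ebp1* and *Lamtor5*, all lower after DM, beside 9.4% of all genes that were lower without overlap and 12.8% in either direction. The summed level of the 10 stroma markers was 1474 to 23601 CPM in these controls and 5775 to 21088 CPM after DM, that of the 12 granulosa markers 414 to 29245 and 1617 to 42958 CPM, and that of the 16 oocyte markers 42.8 to 577 and 92.4 to 4305 CPM, and their part in these values was not tested.

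**Figure D3:**
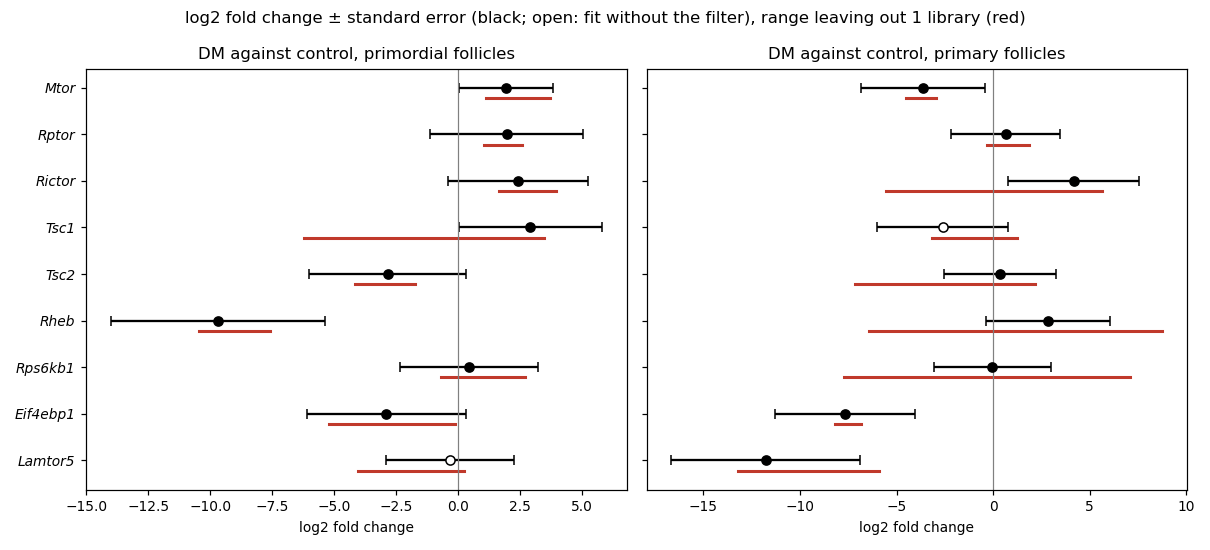
log2 fold change of DM against control (horizontal axis) for 9 of the genes in primordial (left) and primary follicles (right), as edgeR estimate with its standard error in black, open where the gene was fitted without the filter, and the range of estimates with 1 library left out in red. In primordial follicles the red range stays above 0 for *Mtor* (1.13 to 3.69), *Rptor* (1.05 to 2.57) and *Rictor* (1.66 to 3.97). There it stays below 0 for *Tsc2*, *Rheb* and *Eif4ebp1* and crosses 0 for *Tsc1*, *Rps6kb1* and *Lamtor5*. In primary follicles it stays below 0 for *Mtor*, *Eif4ebp1* and *Lamtor5*, and crosses 0 for *Rptor*, *Rictor*, *Tsc1*, *Tsc2*, *Rheb* and *Rps6kb1*.

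The stages were compared over all 12 libraries, 6 against 6, with treatment as a covariate, so these are the libraries of the DM comparisons again. None of the 9 genes tested passed edgeR's test, beside 0% of 8500 genes called, and the median log2 fold change of primary against primordial follicles was 0.71 beside -0.49 over all genes. At an unadjusted p under 0.05, 2 of the 9 were reached (*Tsc1* and *Lamtor5*), beside 11.7% of all genes, and DESeq2 called 0 of the 5 with an adjusted p, beside 14.7% of all genes. *Tsc1* had the most negative value, -6.27 ± 3.03 (edgeR adjusted p = 0.390). Its primordial libraries held 3 to 9888 counts and its primary libraries 1 to 253, so the stages overlapped, and without primordial DM 3, the library with 9888 counts, the value was -2.11. *Lamtor5* had the most positive value, 8.24 ± 4.09 (edgeR adjusted p = 0.407). Within controls alone it was 13.42 (edgeR adjusted p = 0.205), the primary controls being the libraries in which it was abundant. Over its alternatives the adjusted p ran from 0.205 to 0.736, and with 1 library left out the stage value ran from 4.97 to 13.31.

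For the rest, *Mtor* had a log2 fold change between stages of -3.01 ± 2.77, *Eif4ebp1* of -3.39 ± 2.75 and *Rictor* of 2.54 ± 1.98. Those of *Rheb* (4.20 ± 7.25), *Rptor* (0.71 ± 2.14), *Tsc2* (1.07 ± 2.54) and *Rps6kb1* (0.42 ± 2.06) were smaller than their standard errors. Adjusted p from edgeR for these 7 genes ran from 0.701 to 1. None of the 10 genes separated the 6 primary from the 6 primordial libraries, beside 0.388% of all genes that did, of which nearly all were lower in primary follicles (0.353%). *Mlst8* had 30 counts in primary and 7 in primordial libraries, a ratio of 4.28 relative to library size (exact 95% interval 1.84 to 11.5), and 29 of the 30 were in primary controls 1 and 2. Without primary control 1 the ratio was 2.28 with an interval of 0.844 to 6.73, which covers 1, and without primordial DM 2 it was 24.3.

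Whether DM differed in its effect between the stages was tested as an interaction over the 12 libraries. None of the 9 genes passed, beside 0% of 8500 genes called. The median was -1.08 beside -0.42 over all genes, with 3 positive and 6 negative values. At an unadjusted p under 0.05, 2 of the 9 were reached (*Rheb* and *Lamtor5*), beside 18.9% of all genes, and DESeq2 called 0 of the 5 with an adjusted p, beside 11.4% of all genes. *Rheb* had the most positive interaction, 12.96 ± 4.90 (edgeR adjusted p = 0.157), which fell to 3.53 when primary DM 3, the library with 7161 counts, was left out. *Lamtor5* had the most negative one, -11.39 ± 4.65 (edgeR adjusted p = 0.181), which was -5.73 without primary control 3, the library with 15461 counts. *Mtor* was at -5.31 ± 3.92 (edgeR adjusted p = 0.441), so the opposite signs of its DM values in the 2 stages did not pass the test of their difference. The other interactions were 3.77 ± 4.01 for *Tsc2*, 2.16 ± 3.40 for *Rictor*, -0.06 ± 3.83 for *Rps6kb1*, -1.08 ± 3.92 for *Rptor*, -4.51 ± 4.19 for *Eif4ebp1* and -5.56 ± 4.19 for *Tsc1*, with edgeR adjusted p from 0.449 to 1.

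**Figure D4:**
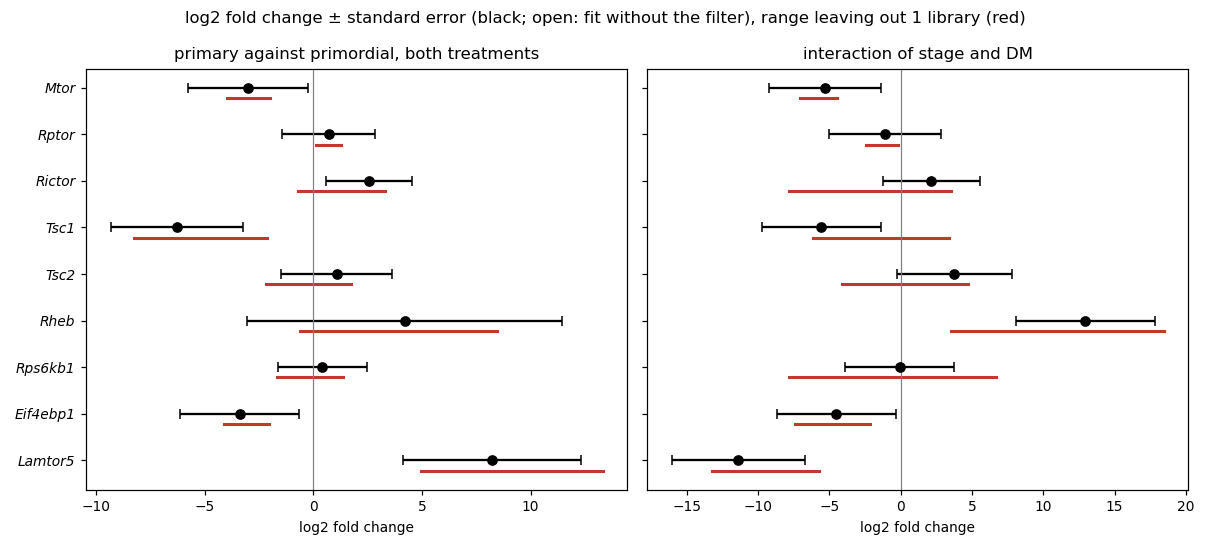
log2 fold change of primary against primordial follicles over both treatments (left) and the interaction of stage and DM (right) for 9 of the genes, as edgeR estimate with its standard error in black and the range of estimates with 1 library left out in red. Standard errors of several log2 units are seen for most genes, with 7.25 for the stage difference of *Rheb*.

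Patterns of these genes across libraries were compared pair by pair. Over the 12 libraries, log2(CPM + 1) of the 9 genes with enough counts gave Pearson correlations from -0.42 to 0.61 over 36 pairs, with a median of 0.08 and 19 pairs above 0. These are descriptions over libraries that share depth and makeup, without the same values over pairs of other genes beside them. The most alike pair was *Eif4ebp1* and *Tsc1*. With *Mtor* itself, the other 8 ranged from -0.42 for *Tsc2* to 0.20 for *Rps6kb1*. Of 8499 other genes, the patterns most like *Mtor* were those of *Ube3a* (a ubiquitin ligase, 0.91), *Spop* (a substrate adaptor of a ubiquitin ligase, 0.88) and *Ptges3* (the HSP90 cochaperone p23, 0.87). All 3 had 2 to 18 counts in primordial control 3 and 7 to 259 counts in the primary DM libraries, where *Mtor* was low as well. In primary control 3 they differed from it, with 20, 4 and 20 counts beside 499 of *Mtor*.

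Other genes of the pathway were read in lists, and none of their members passed edgeR's test at an adjusted p under 0.05 in any of the 4 comparisons. Of the partners of mTORC1 and its nutrient arm, 21 were measured. In primordial follicles 12 could be tested after DM, 6 positive and 6 negative with a median of 0.00. Of these, 0 were reached at an unadjusted p under 0.05, beside 7.33% of all genes, while DESeq2 called 1 (*Lamtor2*) of 10 with an adjusted p, beside 12.5% of all genes. In primary follicles 7 could be tested, 3 positive and 4 negative with a median of -3.68, of which 2 were reached at an unadjusted p under 0.05, beside 12.2% of all genes. DESeq2 called 3 of 7 with an adjusted p, beside 21.2% of all genes. *Flcn*, the folliculin that activates RagC and RagD, had 20, 3952 and 236 counts in primary controls and 1, 0 and 0 counts after DM (log2 fold change -11.32 ± 4.33, edgeR adjusted p = 0.395, DESeq2 adjusted p = 0.00787, range over alternatives 0.00787 to 0.999). *Lamtor2*, another Ragulator subunit, had 518, 268 and 3 counts in primary controls and 24, 1 and 18106 after DM, and its interaction of stage and DM was 16.08 ± 5.15 (edgeR adjusted p = 0.107), with 6.66 to 16.64 when 1 library was left out.

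Of the partners of mTORC2, 3 were measured, 2 were tested in primordial and 1 in primary follicles, and 0 were reached at an unadjusted p under 0.05 or called by DESeq2 in any comparison. Over the 4 comparisons, 7.33% to 18.9% of all genes were reached at that unadjusted p, and DESeq2 called 11.4% to 21.2%. *Mapkap1*, which encodes the mTORC2 subunit SIN1, had 15932, 4471 and 2866 counts in primary controls and 7, 6 and 950 counts after DM. As CPM these groups did not overlap, beside 9.4% of all genes that were lower without overlap in primary follicles. The log2 fold change was -3.68 ± 3.43 (edgeR adjusted p = 0.567). *Prr5*, another mTORC2 subunit, had 8, 3214 and 10 counts in primordial controls and 42, 0 and 0 counts after DM. Neither relative of TSC and Rheb that was measured, *Tbc1d7* and *Rhebl1*, passed the filter in any comparison.

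Among targets of mTORC1 and mTORC2, 14 were measured, with 9 tested in primordial (5 positive, 4 negative, median 0.20) and 8 in primary follicles (3 positive, 5 negative, median -1.48). None of them was reached at an unadjusted p under 0.05 in either stage, beside 7.33% and 12.2% of all genes. DESeq2 called 2 of 8 in primordial and 1 of 7 in primary follicles with an adjusted p, beside 12.5% and 21.2% of all genes. *Eif4e*, the cap-binding protein that 4E-BP1 holds, had 66326, 14538 and 28 counts in primary controls and 19, 30 and 28 counts after DM. As CPM these groups did not overlap. This held for 2 of the 8 targets tested, lower after DM, beside 9.4% of all genes that were lower without overlap. The log2 fold change of *Eif4e* was -8.44 ± 4.32 (edgeR adjusted p = 0.396, DESeq2 adjusted p = 0.0309, range over alternatives 0.0309 to 0.999). *Atg13*, an autophagy protein phosphorylated by mTORC1, had 14261 counts in primordial control 1 and 5963 in primary DM 2 but at most 30 in any other library, and its interaction of 18.81 ± 5.58 (edgeR adjusted p = 0.0974) ran from 8.22 to 19.41 with 1 library left out.

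*Akt2*, which encodes a kinase that phosphorylates TSC2 and is itself phosphorylated by mTORC2, was read beside these lists. It had 5581, 3366 and 14541 counts in primary controls and 5, 15 and 43 counts after DM (log2 fold change -8.86 ± 4.38, edgeR adjusted p = 0.396). These groups did not overlap, beside 9.4% of all genes that were lower without overlap. Of the 7 subunits of AMPK, the kinase that DM inhibits, 4 were tested in primordial and 2 in primary follicles. At an unadjusted p under 0.05, 0 and 1 of them were reached, beside 7.33% and 12.2% of all genes. DESeq2 called 0 of the 3 with an adjusted p in either stage, beside 12.5% and 21.2% of all genes. *Prkab1*, the regulatory beta 1 subunit, had 7637, 70 and 110 counts in primary controls and 2, 9 and 3 counts after DM. It had 2965, 725 and 176 counts in primordial controls and 1622 to 3545 in the primordial DM libraries. Its interaction was -9.47 ± 4.60 (edgeR adjusted p = 0.244). DESeq2 called this interaction (adjusted p = 0.0146), the lowest over its alternatives, which reached 0.761. It was 1 call among the 2 subunits with an adjusted p there, beside 11.4% of all genes. At an unadjusted p under 0.05, 1 positive and 2 negative interactions were reached among the 4 subunits tested, beside 18.9% of all genes. For the interaction, an unadjusted p under 0.05 was reached by 7 of 17 genes tested among partners of mTORC1 and the nutrient arm (3 positive, 4 negative, median -6.43), beside the 18.9% of all genes given above. DESeq2 called 4 of the 9 of them with an adjusted p, beside 11.4% of all genes. Single libraries weighed on these values. With 1 library left out, *Lamtor2* fell to 6.66, and *Nprl3*, of the same list, went from -13.28 to as little as -3.34. Among targets of mTORC1 and mTORC2, 1 positive and 1 negative interaction of 13 tested were reached at that unadjusted p. DESeq2 called 2 of the 9 targets with an adjusted p.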

How the data were processed

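RNA of LCM oocytes was measured in 12 libraries. Per the methods, the authors trimmed reads with trim_galore, mapped them to mm10 with TopHat2 and counted them per gene with featureCounts, and the authors deposited raw counts without normalization. The submitters' processing notes name Trim Galore, STAR and featureCounts, and which aligner made the table is not settled here. Libraries were prepared, per the labels, from amplified cDNA with a capture-based kit (TruSeq RNA Access). The paper's methods name this kit but also Smart-seq II for the collected oocytes, and which was used is not settled here. Exon lengths and positions were taken from an annotation of GRCm38.

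The genes and lists were chosen with earlier results of these data known. Values of all 10 genes are given in every comparison, except that *Mlst8*, with few counts, has count ratios and no interaction, and of each pathway list up to 4 genes with the smallest unadjusted p were eligible to be named. No pair of libraries of 1 group was within sampling noise (chi-square of their counts divided by its degrees of freedom at least 1146). Each library was therefore treated as 1 sample. This check can find copies of a library only, and it cannot show that libraries came from separate animals or pools.

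Counts were fitted in R 4.3.3 with edgeR 4.0.16 (filterByExpr with a minimum count of 10, TMM, glmQLFit, glmQLFTest, prior count 0.125), adjusted by Benjamini-Hochberg over all genes tested, with a threshold of 0.05. DM was compared with control on the 6 libraries of a stage. Stage (with treatment as covariate) and the interaction used all 12. Standard errors came from the log2 fold change and its F statistic. Two-sided tests were used throughout. Genes that did not pass the filter were fitted without it. Alternatives were DESeq2 1.42.0, DESeq2 size factors, library size alone, no filter, a prior count of 2, an unadjusted p, a replicate block, all 12 libraries in 1 fit, stage within 1 treatment and each library left out. Non-overlap on CPM without TMM was added after seeing the data. The code was tested on simulated data. Tables and exact intervals used Python 3.11.15 and SciPy 1.17.1. The other measurements of the study were not used here. The counts of 1 further list of upstream genes are not reported here.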

Additional observations from a re-analysis of the deposited data

How the results depend on the processing

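The spread between libraries set the limit of every comparison. The biological coefficient of variation was 1.76 in the primordial, 1.86 in the primary, 2.06 in the stage and 1.90 in the interaction fit, and standard errors on the log2 scale had medians of 2.84, 3.14, 2.70 and 4.14. With library size alone in place of TMM, the median of all genes tested shifted by -0.56, -1.27, -0.97 and -0.83 in these 4 comparisons, and with DESeq2 size factors by 0.44, 1.73, 1.20 and 1.12, so signs of small values depend on the scaling.

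At an unadjusted p under 0.05, 1, 2, 2 and 2 of the genes were reached in place of 0 in the primordial, primary, stage and interaction comparisons. DESeq2 called 1 in primordial (*Rheb*) and 1 in primary follicles (*Eif4ebp1*). Without TMM, 1 gene in place of 2 did not overlap in primordial follicles. Leaving out 1 library moved the median over the genes from -2.42 to 1.99 in primordial follicles, from -5.52 to 1.17 in primary follicles, from -0.075 to 1.20 between stages and from -5.27 to -0.25 in the interaction.

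Same-numbered libraries did not deviate together (correlations of deviations from group means -0.0377 to 0.0314). With a spread between libraries this large, the check cannot show whether the numbers pair the samples. A replicate block moved the median to -0.0035 in primordial and to -3.05 in primary follicles and changed the sign of *Tsc1* in primordial follicles (-1.34), of *Rptor* (-0.78), *Tsc2* (-5.52) and *Rheb* (-1.47) in primary follicles, of *Rps6kb1* between stages (-1.61), and of *Rictor* (-2.25) and *Rps6kb1* (4.43) in the interaction.

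Library size alone changed the sign of *Rps6kb1* in primordial (-0.82), *Tsc2* in primary follicles (-0.82), and *Rptor* (-0.62) and *Rps6kb1* (-0.34) between stages. DESeq2 and DESeq2 size factors changed that of *Lamtor5* in primordial follicles (0.089 and 0.034), of *Rps6kb1* in primary follicles (2.67 and 2.68) and of *Rps6kb1* in the interaction (0.74 and 0.80). *Rps6kb1* in primary follicles was 0.33 without the filter and 0.45 with all 12 libraries in 1 fit. Between stages, *Rptor* was -0.030 in DM libraries only, and *Tsc2* -0.79 and *Rheb* -2.04 in control libraries only.

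With 1 library left out, values crossed 0 in primordial follicles for *Tsc1* (-6.20 to 3.47), *Rps6kb1* (-0.69 to 2.68) and *Lamtor5* (-4.05 to 0.23). In primary follicles they did for *Rptor* (-0.29 to 1.84), *Rictor* (-5.52 to 5.62), *Tsc1* (-3.18 to 1.26), *Tsc2* (-7.14 to 2.17), *Rheb* (-6.42 to 8.77) and *Rps6kb1* (-7.71 to 7.11). Between stages they did for *Rictor* (-0.69 to 3.31), *Tsc2* (-2.19 to 1.74), *Rheb* (-0.59 to 8.45) and *Rps6kb1* (-1.66 to 1.36), and in the interaction for *Rictor* (-7.81 to 3.52), *Tsc1* (-6.16 to 3.42), *Tsc2* (-4.12 to 4.75) and *Rps6kb1* (-7.85 to 6.67). In all, 31 of 324 leave-one-out values and 22 of 246 values under other settings had the opposite sign. The cause was not tested.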

Other observations

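*Cdkn1b*, which encodes the cell cycle inhibitor p27 that AKT and AMPK both phosphorylate, separated the stages. It had 1268, 4402 and 665 counts in primordial controls, 1908, 17033 and 544 in primordial DM, 301, 118 and 6 in primary controls and 11, 6 and 3 in primary DM libraries. As CPM all 6 primary libraries lay below all 6 primordial libraries, as 0.353% of all genes did. Its stage difference was -5.96 ± 2.88 on the log2 scale, which did not pass edgeR's test (adjusted p = 0.390) and had an adjusted p of 0.00343 with DESeq2, in a range of 0.00343 to 0.867 over its alternatives. Leaving out 1 library gave -6.71 to -4.71.

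Other genes of the pathway were abundant in 1 or 2 libraries. *Tti1*, a cofactor in the assembly of mTOR, had 8318 counts in primary control 1 and 13045 in primary DM 1 beside 2 to 12 in the other 4 primary libraries. *Pik3cb*, a catalytic subunit of PI3K, had 9494 counts in primordial DM 2 and at most 58 in any other library. *Prkab2*, an AMPK beta subunit, had 2810 counts in primordial control 1, 6841 in primary DM 1 and at most 18 elsewhere.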
